A study of Saccharomyces cerevisiae with 7 samples.

Results

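Upper glycolysis in budding yeast (Saccharomyces cerevisiae) was followed at the transcript level through a meiotic time course, through 9 genes of glucose phosphorylation and hexose phosphate conversion and FBP1, the gene of the gluconeogenic enzyme that works against phosphofructokinase. The 10 genes were chosen by name, by their open reading frame identifiers, out of 6141 rows in the table, and all 10 had a value at every time. The strain was labelled a Spo11Y135F mutant in all 7 sample titles, although their description field leaves the mutant out for the 1 and 2 h samples. Spo11 is the protein that cuts DNA to start meiotic recombination, and the exchanged tyrosine is its catalytic residue. Samples were taken at 1, 2, 3, 4, 5, 6 and 8 h, with 1 column of values for each time, and every comparison is between times of this mutant. No source used here gives the ploidy, the sporulation and growth media or the degree of synchrony.

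Each value is a log2 ratio of 2 colours, mRNA of the time point (Cy5) over a mixture of mRNA from the time course (Cy3), divided by that ratio at 0 h. A value of 1 therefore stands for a transcript share 2-fold above its share at 0 h, and -1 for a share 2-fold below. The values say how far each gene moved from its own start and nothing about which gene has more mRNA. With bulk RNA, fewer cells with a transcript and less of it in each cell cannot be told apart. With 1 array a time there is no replicate spread at any time, so single values describe these arrays, and an error in a shared 0 h measurement would shift a gene at all times together. Of the 6141 rows, 5585 had all 7 values and served as the background.

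Glycolysis begins when hexokinases and glucokinase put a phosphate on glucose, which traps it in the cell. An isomerase then turns glucose 6-phosphate into fructose 6-phosphate, phosphofructokinase adds a second phosphate in the step that commits the sugar to glycolysis, and aldolase splits the product into 2 trioses. Gluconeogenesis runs through the same isomerase and aldolase in the opposite direction but needs fructose bisphosphatase in place of phosphofructokinase. Yeast sporulates without glucose, on a non-fermentable carbon source such as acetate, so hexose phosphates for storage sugars and the spore wall come from gluconeogenesis or from stored carbohydrate.

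Most of the 10 transcripts lay below their 0 h level, and EMI2 alone of them passed 2-fold above it. The median of the 10 was -0.66, -1.43, -1.63, -2.19, -1.98, -1.53 and -1.34 at the 7 times in order, so it was lowest at 4 h. The medians of all 5585 rows lay between -0.15 and 0.03 at the same times. Genes no higher than -1, that is 2-fold or more below 0 h, numbered 4, 7, 8, 6, 7, 7 and 5 of the 10 at the 7 times. The shares of all rows that were as low were 9.44%, 9.35%, 8.43%, 10.7%, 17.4%, 19.5% and 10.8%. HXK2, PGI1 and FBP1 were at least 2-fold below at all 7 times, HXK1 and FBA1 at 6, GLK1 and PFK2 at 5 and PFK1 at 1. PFK26 stayed within 2-fold throughout. At 1, 2 and 3 h 0 of the 10 were 2-fold above 0 h, where 10.8%, 8.68% and 7.68% of all rows were, and at 4, 5, 6 and 8 h 1 gene was, EMI2, against 11.5%, 16.3%, 18.9% and 12.3% of all rows.

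**Figure D1:**
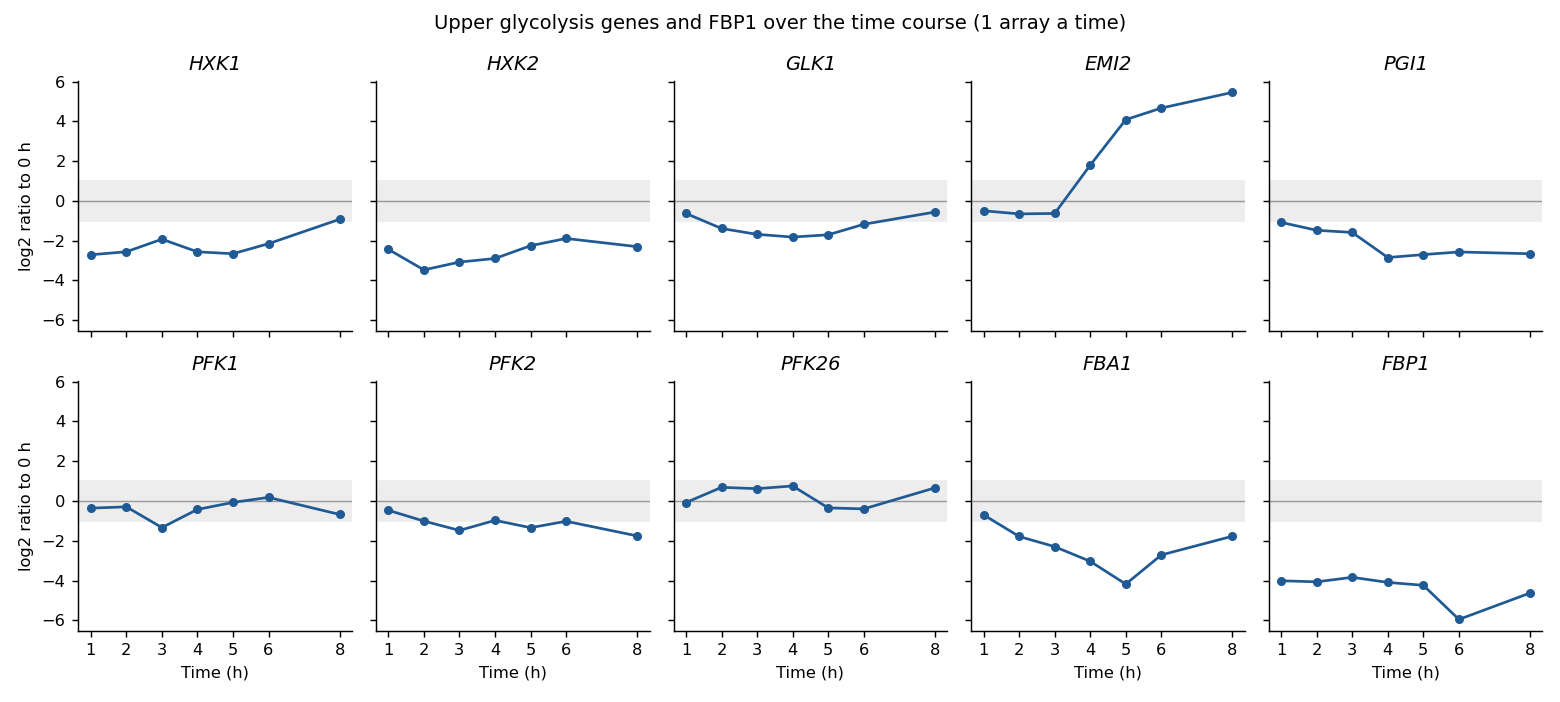
Log2 ratio to 0 h (vertical axis, same scale in all panels) against time in hours for the 10 genes, with 1 point for each array; the grey band marks values within 2-fold of 0 h. EMI2 leaves the band upward at 4 h and ends at 5.45, FBP1 lies at or below -3.84 throughout, and FBA1 reaches -4.18 at 5 h.

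The test of a trend was a straight line in hours, fitted with limma to all 5585 rows, and a second test added a quadratic term and asked with an F-test whether the 2 time terms together describe the course. In these fits the scatter around the line or curve is the only error, with 5 and 4 residual degrees of freedom. Values of successive times may not be independent, so the p-values serve as a ranking with that limit. In the line test 1 of the 10 genes rose, EMI2, where 1.34% of all rows rose, and 0 fell, where 0.716% did, together 2.06% of rows. Without adjustment 3 of the 10 had a limma p under 0.05 in the line test, as did 1282 of the 5585 rows. In the curve test 2 of the 10 were called, EMI2 and FBA1, against 5.68% of all rows. An unadjusted p under 0.05 in this F-test was found for 5 of the 10 and for 1539 of the 5585 rows. Without the 1, the 2 or the 6 h array the line test called 0 of the 10 and 0 of all rows. Without the 2, the 4 or the 5 h array the curve test called 0 of the 10 and 1, 3 and 2 of the 5585 rows, so these omissions end nearly all calls of the table. Without the 8 h array the tests called 3 and 4 of the 10, where 15.5% and 29.9% of all rows were called.

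Glucose phosphorylation is served by 4 of the genes. HXK1 and HXK2 encode the hexokinases, of which Hxk2 is the main one on glucose and also takes part in glucose repression. GLK1 encodes glucokinase, and EMI2 (early meiotic induction) its paralogue, a gene that was named because it is needed for full induction of the meiotic regulator IME1.

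HXK1 (YFR053C) was at -2.71, -2.56, -1.93, -2.56, -2.65, -2.15 and -0.92 at 1, 2, 3, 4, 5, 6 and 8 h. It was thus 6.53-fold below 0 h after 1 h and 1.90-fold below at the end, with its highest value at 8 h. HXK2 (YGL253W) was at -2.44, -3.47, -3.07, -2.89, -2.25, -1.89 and -2.30. Its lowest value, 11.1-fold below 0 h at 2 h, was undercut by 5 of the 5585 rows. The limma slopes were 0.19 ± 0.08 (SE) log2 per hour for HXK1 (adjusted p = 0.193) and 0.13 ± 0.08 for HXK2 (adjusted p = 0.355), so neither passed. After quantile normalization between columns HXK1 passed both the line test (slope 0.27, limma adjusted p = 0.0345) and the curve test (adjusted p = 0.0432). Without the 8 h array its slope was 0.05 (adjusted p = 0.734) and the curve test gave 0.825.

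Relative to its own start, HXK1 was above HXK2 at 4 of the 7 times. The difference of the 2 log2 ratios, HXK1 minus HXK2, was -0.27, 0.91, 1.15, 0.33, -0.40, -0.26 and 1.38 in the order of the times. The order of the hexokinases changed between times, so no single order held over the course. From 1 to 2 h HXK2 differed by -1.03 and HXK1 by 0.15, and from 6 to 8 h HXK1 differed by 1.22 and HXK2 by -0.41. The difference has no replicate and was not tested.

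GLK1 (YCL040W) was at -0.63, -1.39, -1.68, -1.82, -1.70, -1.18 and -0.56 at the 7 times. It described a shallow dip with its lowest value at 4 h, 3.52-fold below 0 h, and ended close to where it was at 1 h. The scatter around the fitted curve was small, with a residual standard deviation of 0.19, but the curve test did not pass (limma F-test, adjusted p = 0.122).

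EMI2 (YDR516C) took a different course. Its values were -0.50, -0.65 and -0.63 at 1, 2 and 3 h and then 1.79, 4.08, 4.67 and 5.45 at 4, 5, 6 and 8 h. The 3 early values lie together below 0 h and the 4 later ones all lie above, ending 43.8-fold over the 0 h level. At 8 h 28 of the 5585 rows had a higher value, and the distance between its lowest and highest value, 6.11 log2 units or 68.9-fold, was wider than that of 99.1% of rows. The slope was 1.05 ± 0.13 (SE) log2 per hour (limma adjusted p = 0.0265). The curve test passed as well (adjusted p = 0.0229). Over 12 alternatives the adjusted p of the slope ran from 0.00333 to 0.185, and it was above the threshold without the 1 h (0.0639), the 2 h (0.185) or the 6 h array (0.0658). The curve call was lost without the 2 h (adjusted p = 0.108), the 4 h (0.0579) or the 5 h array (0.0762), and the slope stayed between 0.99 and 1.21 over all 7 omissions.

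As deposited, the 2 largest steps of EMI2 were those from 3 to 5 h. From 3 to 4 h it went up by 2.43 (5.37-fold), a step that 85 of the 5585 rows exceeded, and from 4 to 5 h by 2.29 (4.89-fold), which 27 rows exceeded. The 2 steps that followed were 0.58 and 0.79. After quantile normalization the 4 steps were 2.64, 1.25, 0.03 and 1.34, so only the first kept its place as the largest. IME1, the regulator whose induction gave EMI2 its name, was at 2.75, 3.15, 3.50, 3.03, 1.50, 0.41 and 0.23 at the 7 times, so it was highest at 3 h, when EMI2 was still below its start. NDT80, the transcription factor of the middle meiotic genes, was at 1.51, 1.07, 1.74, 5.17, 7.24, 7.47 and 5.48 at the 7 times. NDT80 thus went up from 1.74 at 3 h to 5.17 at 4 h and 7.24 at 5 h. As deposited, the 2 largest steps of EMI2 fell in the same intervals. The courses differed at other times. NDT80 was above 0 h at 1, 2 and 3 h, when EMI2 was below. It was lower at 8 h than at 6 h, when EMI2 was higher. A link between NDT80 and EMI2 was not tested. These 2 regulators were chosen after their values were seen.

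The paralogues GLK1 and EMI2 were close at 1 h and far apart at 8 h. GLK1 minus EMI2 was -0.13, -0.73, -1.05, -3.61, -5.79, -5.84 and -6.01 in the order of the times. The sign was the same at all 7 times, and quantile normalization left it negative with a largest distance of -5.05. Whether array elements of paralogous genes picked up each other's transcript was not tested, for the hexokinase genes as for GLK1 and EMI2.

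**Figure D2:**
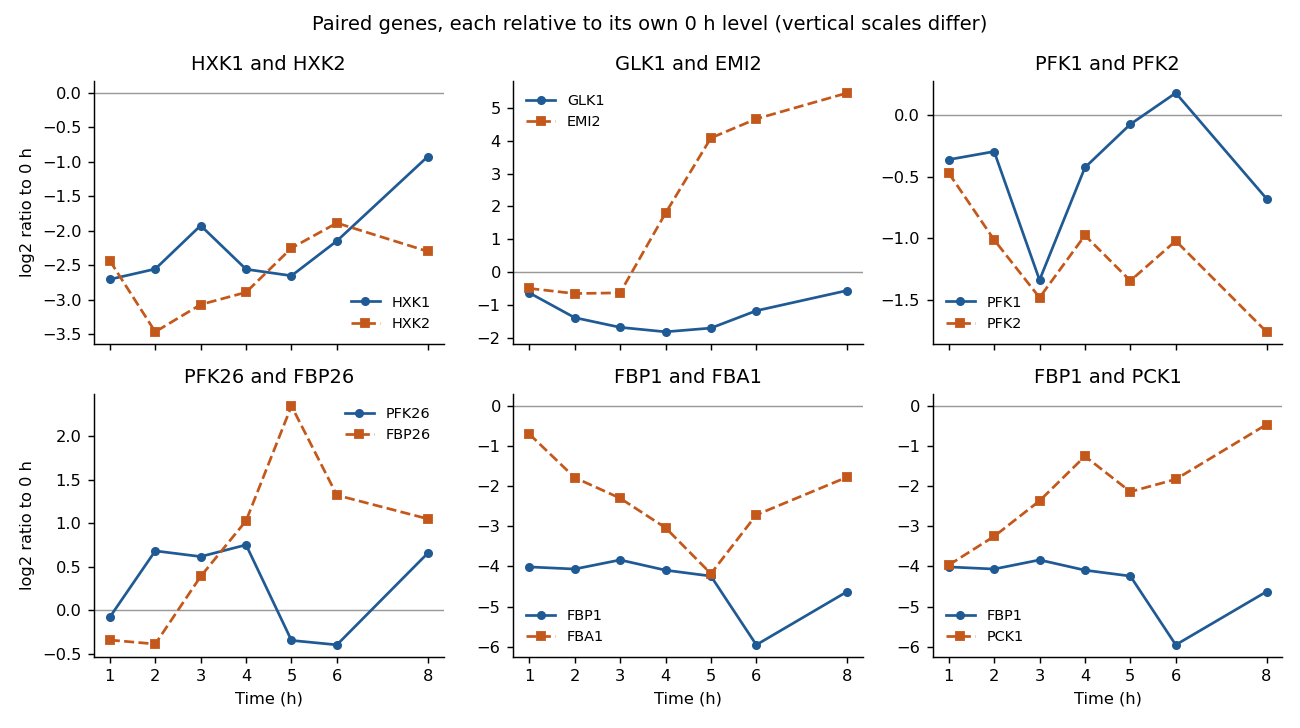
Log2 ratio to 0 h against time in hours for 6 pairs of genes, each gene relative to its own 0 h level, with 1 array a time and a vertical scale of its own in each panel. HXK1 and HXK2 cross, GLK1 and EMI2 part after 3 h, FBP1 and FBA1 meet at 5 h, and FBP1 and PCK1 start together at 1 h.

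PGI1 (YBR196C), the only phosphoglucose isomerase gene and needed for both directions of the pathway, was at -1.08, -1.48, -1.58, -2.85, -2.70, -2.57 and -2.66. Its values at 1, 2 and 3 h were higher than those from 4 h on, a cut chosen from these same values. The share of all rows that part in this way was not counted. The difference from 3 to 4 h of -1.26 (2.40-fold) was exceeded downward by 20 of the 5585 rows, in an interval in which 1.31% of rows were at least 2-fold lower and 5.98% at least 2-fold higher. The slope of -0.25 ± 0.08 (SE) log2 per hour did not pass (limma adjusted p = 0.110), nor did the curve (adjusted p = 0.0771). Without the 8 h array both did, with adjusted p-values of 0.0398 and 0.0305.

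Phosphofructokinase is an octamer of 2 kinds of subunit, alpha from PFK1 and beta from PFK2. PFK1 (YGR240C) was at -0.36, -0.30, -1.34, -0.43, -0.08, 0.18 and -0.68 at the 7 times. It left the 2-fold range around 0 h at 3 h only. PFK2 (YMR205C) was at -0.47, -1.01, -1.48, -0.98, -1.34, -1.02 and -1.76, and was at least 2-fold below 0 h at 5 of the times. Neither had a slope that passed, with 0.03 ± 0.09 (SE) log2 per hour for PFK1 (limma adjusted p = 0.874) and -0.12 ± 0.07 for PFK2 (adjusted p = 0.310).

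The alpha subunit transcript lay above the beta subunit transcript, each relative to its start, at 7 of 7 times. PFK1 minus PFK2 was 0.11, 0.72, 0.14, 0.55, 1.27, 1.20 and 1.08, so the distance was at least 2-fold at 5, 6 and 8 h and small at 1 and 3 h. Both subunit genes had a local low at 3 h and moved up together from 3 to 4 h, by 0.91 and 0.50, and both moved down from 6 to 8 h. A shared error at 0 h in one of the genes would add a constant to this difference, but would not change its course over time.

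PFK26 (YIL107C) encodes a kinase that makes fructose 2,6-bisphosphate, a signal that activates phosphofructokinase and inhibits fructose bisphosphatase. Its values were -0.08, 0.68, 0.62, 0.75, -0.35, -0.40 and 0.65, within 2-fold of 0 h at all 7 times. It was above 0 h at 2, 3, 4 and 8 h and below it at 1, 5 and 6 h, with a difference of -1.10 from 4 to 5 h, which 189 rows exceeded downward, and of 1.05 from 6 to 8 h. Its slope was -0.02 ± 0.09 (SE) log2 per hour (limma adjusted p = 0.943).

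The 2 partners of PFK26 differed in how far they parted from it. PFK27, the second gene for this kinase activity, was at -0.55, 0.06, 0.84, 0.34, -0.81, -0.27 and -0.03, also within 2-fold throughout, and PFK26 minus PFK27 stayed between -0.22 and 0.68. FBP26, the bisphosphatase that removes fructose 2,6-bisphosphate, was at -0.34, -0.39, 0.39, 1.03, 2.35, 1.32 and 1.05, that is 5.10-fold above 0 h at 5 h. Neither passed the line or the curve test, and the curve test of FBP26 gave a limma adjusted p of 0.0791. PFK26 minus FBP26 was positive at 1, 2 and 3 h (0.26, 1.07 and 0.23) and negative from 4 h on, with -2.70 at 5 h and -1.72 at 6 h. After quantile normalization the difference at 5 h was -2.09.

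FBA1 (YKL060C), the only aldolase gene, was at -0.70, -1.79, -2.30, -3.04, -4.18, -2.71 and -1.77 at the 7 times. It went down at each step to 5 h, when it was 18.1-fold below 0 h with 11 of the 5585 rows lower, and lay higher again at 6 and 8 h. The step up from 5 to 6 h was 1.47 (2.76-fold), which 274 rows exceeded, and the 8 h value was back at that of 2 h. A straight line did not pass, at -0.18 ± 0.14 (SE) log2 per hour (limma adjusted p = 0.492), while the curve test passed (adjusted p = 0.0447). Over 11 alternatives the adjusted p of the curve ran from 0.0107 to 0.150 and passed in 5. It did not pass with columns centred on their median (0.0512), with a trended and robust prior (0.0687), or without the 1 h (0.140), the 2 h (0.150), the 4 h (0.102) or the 5 h array (0.0920). Without the 8 h array the line test passed too, with a slope of -0.51 (adjusted p = 0.0378), and without the 1 h array the slope was -0.01 (adjusted p = 0.972).

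FBP1 (YLR377C), fructose bisphosphatase, is repressed by glucose and needed for growth on acetate, and its product enzyme is removed by the GID ubiquitin ligase when glucose returns. The transcript was far below its 0 h level at once and stayed there, with -4.01, -4.07, -3.84, -4.09, -4.24, -5.96 and -4.63. It was 16.1-fold below 0 h at 1 h and 62.1-fold below at 6 h. The number of the 5585 rows with a lower value was 2, 3, 5, 6 and 10 at 1, 2, 3, 4 and 5 h and 0 at 6 and 8 h. Over 1 to 5 h the values lay within a narrow band, and the value farthest outside it was that of 6 h. Its mean over the 7 times, -4.41, was the second lowest of all rows. With 1 array a time, the difference of -1.71 from 5 to 6 h rests on the 6 h array, whose column has a different set of empty rows and the widest spread of the 7. The slope was -0.18 ± 0.10 (SE) log2 per hour (limma adjusted p = 0.296). The curve test gave an adjusted p of 0.418, so neither passed. Without the 8 h array the slope was -0.30 and the curve test passed (adjusted p = 0.0203), and without the 6 h array the slope was -0.09. The distance from 0 h itself has no test because 0 h has no column of its own.

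FBP1 was set beside the enzyme that shares its substrate and beside the other enzyme particular to gluconeogenesis. FBP1 minus FBA1 was -3.31 at 1 h and narrowed at each time to -0.06 at 5 h, then stood at -3.24 at 6 h and -2.86 at 8 h. PCK1, which encodes phosphoenolpyruvate carboxykinase, was at -3.97, -3.25, -2.36, -1.25, -2.14, -1.83 and -0.46. FBP1 minus PCK1 was -0.05 at 1 h and -4.17 at 8 h: after 1 h FBP1 was 16.1-fold and PCK1 15.6-fold below 0 h, and at 8 h PCK1 was 1.38-fold below and FBP1 24.7-fold. PCK1 rose in the line test by 0.44 ± 0.09 (SE) log2 per hour (limma adjusted p = 0.0496). This p ran from 0.0138 to 0.192 over 12 alternatives, past the threshold in 5. The difference between the slopes of the 2 genes was not tested.

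**Figure D3:**
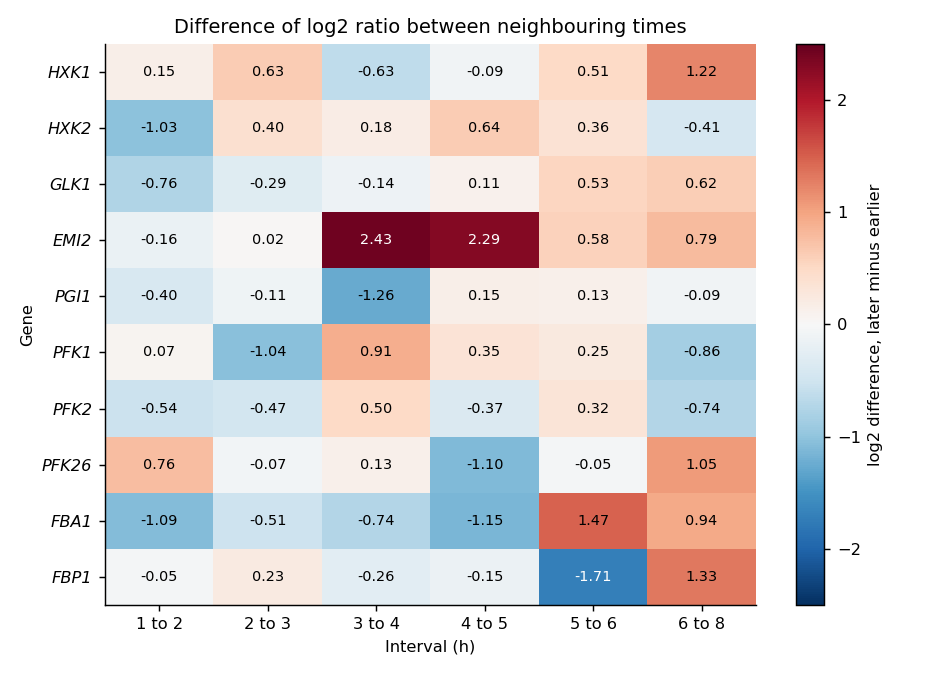
Difference of the log2 ratio between neighbouring times, later minus earlier, for the 10 genes (rows) and 6 intervals in hours (columns), with red for higher and blue for lower at the later time. The 2 largest values are those of EMI2 from 3 to 4 and from 4 to 5 h, 2.43 and 2.29, and the lowest is that of FBP1 from 5 to 6 h, -1.71.

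Differences between neighbouring times are free of the 0 h measurement where both columns used the same one, and 2-fold steps occurred in every interval. From 1 to 2 h 2 genes were at least 2-fold lower, HXK2 and FBA1, against 2.88% of all rows, and 0 were higher by as much (2.86%). From 2 to 3 h 1 was 2-fold lower, PFK1 (6.59% of all rows), and 0 were 2-fold higher (4.85%). From 3 to 4 h 1 was 2-fold higher, EMI2 (5.98%), and 1 lower, PGI1 (1.31%). From 4 to 5 h 1 was higher, EMI2 (6.95%), and 2 were lower, PFK26 and FBA1 (4.91%).

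From 5 to 6 h 1 gene was 2-fold higher, FBA1 (11.2% of all rows), and 1 was 2-fold lower, FBP1 (10.0%). From 6 to 8 h 3 were 2-fold higher, HXK1, PFK26 and FBP1 (14.6%), and 0 were 2-fold lower (14.7%). After quantile normalization the last interval turned to 1 gene 2-fold higher, EMI2 (1.34), against 9.88% of rows, and 2 lower, HXK2 (-1.09) and PFK2 (-1.20), against 8.74%, with HXK1 at 0.79 and PFK26 at 0.98. From 3 to 4 h 2 were then 2-fold higher, EMI2 (2.64) and PFK1 (1.05), against 6.66% of rows. PGI1 (-1.11) was 2-fold lower there, as were 4.19% of rows. From 4 to 5 h 2 were 2-fold higher, EMI2 (1.25) and HXK2 (1.06), against 3.01% of rows. PFK26 (-1.08) was 2-fold lower, against 3.13%, with FBA1 at -0.55. The counts of the other intervals were the same as before. FBP1 was the lowest of all rows at both 6 and 8 h, so after quantile normalization, which gives the lowest row one common value, its difference was 0. No source used here says whether the 6 h column shares the 0 h measurement of the others.

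The rest of the pathway gives these courses their setting. Lower glycolysis, the 10 genes from triose phosphate isomerase to pyruvate kinase, had medians of -1.12, -1.45, -2.92, -3.52, -4.39, -3.82 and -3.50 in the order of the times. At 1 and 2 h these medians were near those of the 10 upper genes, and from 3 h on they were lower by more than 1 log2 unit. The median of 5 h stood 20.9-fold below 0 h. At that time 9 of the 10 lower genes were at least 2-fold below, where 17.4% of all rows were. In the curve test 8 of the 10 changed (TPI1, TDH1, TDH2, TDH3, GPM1, ENO1, ENO2 and CDC19), against 2 of the 10 upper genes and 5.68% of all rows. Without the 2, the 4 or the 5 h array 0 of the 10 lower genes were called, as were 1, 3 and 2 of all 5585 rows, and without the 1 h array 3 of the 10 and 3.26% of rows. A difference between the 2 sets of genes was not tested.

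Single genes of lower glycolysis resembled or departed from FBA1, the last upper step. TPI1, triose phosphate isomerase, had -0.62 at 1 h, -4.90 at 5 h and still -4.59 at 8 h; it fell in the line test, with a slope of -0.69 ± 0.12 (SE) log2 per hour (limma adjusted p = 0.0477), which passed in 7 of 12 alternatives. ENO1 and ENO2, the enolase genes, were lowest at 5 h with -5.22 and -4.78 and at -1.65 and -1.85 at 8 h, values on either side of the -1.77 of FBA1. PGK1 had the lowest value of the list, -5.64 at 6 h, but did not pass the curve test (adjusted p = 0.0956). PYK2, the pyruvate kinase isoform that is repressed by glucose, had the highest maximum, 0.04 at 8 h, and its values otherwise lay between -1.36 and -0.67.

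**Figure D4:**
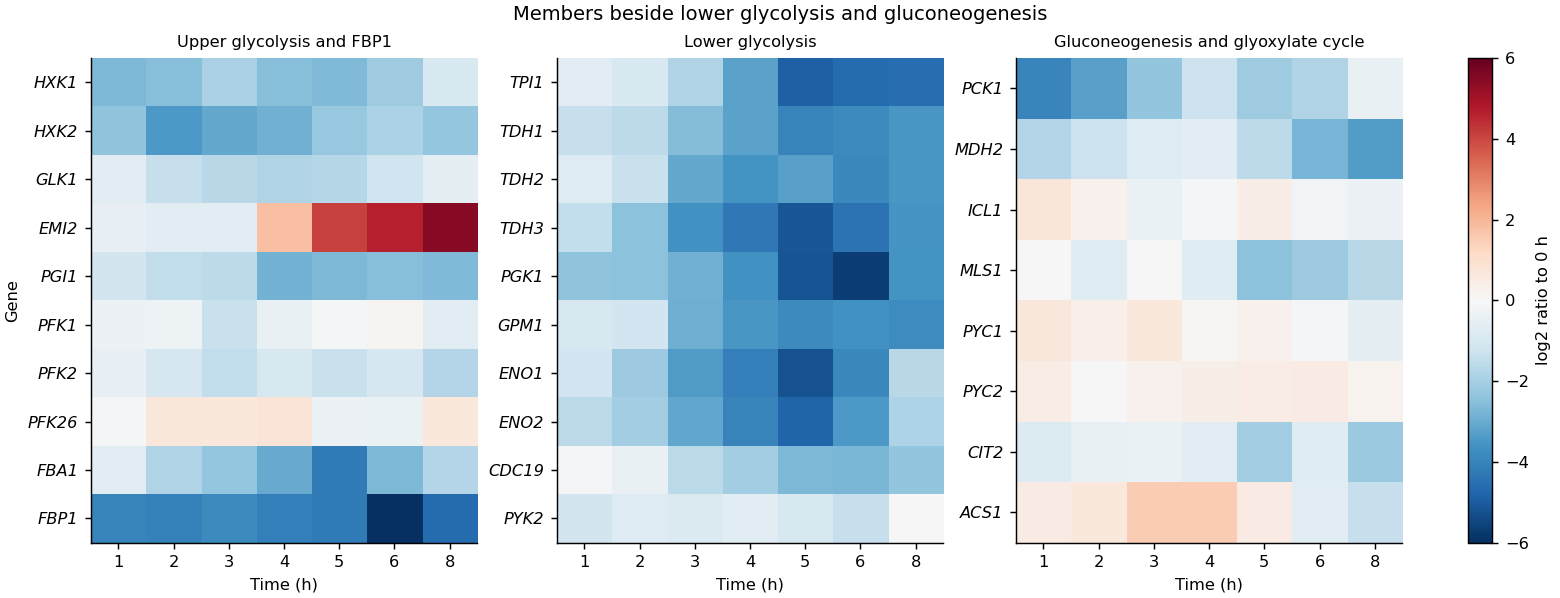
Log2 ratio to 0 h by colour (red above, blue below) for the 10 upper genes, 10 genes of lower glycolysis and 8 genes of gluconeogenesis and the glyoxylate cycle, with time in hours across and 1 array a time. EMI2 is the only row with a value above 2 in the 3 panels, and the lowest values are those of FBP1 and PGK1 at 6 h.

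Gluconeogenesis and the glyoxylate cycle, with 8 genes apart from FBP1, had medians between 0.25 at 1 h and -0.97 at 8 h. After 1 h PCK1 (-3.97) and MDH2 (-1.78), 2 of the 8, were 2-fold or more below the start, as were 9.44% of all rows. CIT2 was at -0.84, so 3 of the 8 were below 0 h, while ICL1 (0.72) and MLS1 (0.04) were above. Of the 8, only PCK1 was near the -4.01 of FBP1. ACS1, an acetyl-CoA synthetase gene, had the highest maximum of the list with 1.53 at 3 h. In the line test 1 of the 8 rose, PCK1, where 1.34% of all rows rose, and 0 fell, where 0.716% did. The curve test called 1, PCK1 again, against 5.68% of all rows (limma adjusted p = 0.0461, passed in 6 of 11 alternatives).

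Among 7 measured genes of the branches that leave glucose 6-phosphate, medians went from -1.05 at 1 h to -0.01 at 5 h. GND1, the 6-phosphogluconate dehydrogenase of the pentose phosphate pathway, went from -1.97 at 1 h to 1.87 at 6 h and passed the curve test (limma adjusted p = 0.0397; passed in 8 of 11 alternatives). GSY2, the main glycogen synthase gene, had the lowest value with -2.89 at 6 h. In the branch from triose phosphate to glycerol GPD2 had values of 0.37 at 2 h and -1.68 at 8 h and fell in the line test, by 0.30 ± 0.06 (SE) log2 per hour (limma adjusted p = 0.0496, passed in 4 of 12 alternatives). Its paralogue GPD1 was at -2.25 at 1 and 3 h and -0.78 at 5 h without passing. NGK1, a hexokinase-related gene, had a value at 6 h only, 1.14.

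Among the regulators of the pathway 1 gene passed the curve test, where 5.68% of all rows did. Of the 4 transcription factors of glycolysis none passed either test; TYE7, an activator of glycolytic genes, was lowest with -3.44 at 6 h and lay at or below -1.34 at every time, while GCR1, the main activator, stayed between -0.59 and 0.94. Of 9 measured genes of glucose repression and derepression 1 passed the curve test, HAP4, a subunit of the activator of respiratory genes, with -1.17 at 2 h and 2.44 at 6 h (limma adjusted p = 0.0349, passed in 8 of 11 alternatives). REG1, a subunit of the phosphatase that maintains repression, had the lowest minimum there with -1.40 at 1 h. Of 5 GID ligase genes with all 7 values none passed. GID8 was above 0 h at all times with a maximum of 1.55 at 5 h, and UBC8, the ubiquitin-conjugating enzyme of the ligase, was lowest with -2.64 at 6 h.

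To place each course among all transcripts, the 2 named rows nearest in their 7 values were found, by the root mean square of the differences in log2 units. For HXK1 these were RPS14A (0.31) and RPL4B (0.37), and for HXK2 RPS2 (0.67) and RPS1A (0.69), all ribosomal protein genes. GLK1 was nearest to ORM2 (0.24) and RPS27A (0.25). EMI2 was nearest to SOL1 (0.68), a relative of the 6-phosphogluconolactonase genes, and GAL7 (0.79), of galactose use, which were at 4.80 and 4.23 at 8 h. PGI1 was nearest to AIM17 (0.24) and FTR1 (0.45), PFK1 to ATP23 (0.30) and RPS28B (0.31), and PFK2 to ESBP6 (0.25) and ADH3 (0.31). PFK26 was nearest to YPT53 (0.16) and SEC61 (0.20), FBA1 to ERG20 (0.57) and MCR1 (0.58), and FBP1 to URA1 (0.70) and GRE2 (0.89). EMI2, HXK2 and FBP1 were farthest from their nearest row. These distances run over 7 columns that are all relative to 0 h and are descriptions only.

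Rows of genes that lie next to the 10 in the R64 annotation were examined after the values were seen, since such rows can share signal. The open reading frame YCL042W overlaps GLK1, and its values, -0.28, -0.60, -1.79, -1.31, -1.44, -0.57 and -0.15, ran 0.48 from those of GLK1 by the same root mean square. SLF1, beside EMI2 without overlap, was at -0.94, -0.25, 0.80, 1.43, 2.36, 1.95 and 1.43. It was above 0 h from 3 h on, where EMI2 was from 4 h on. SLF1 lay below EMI2 at 4, 5, 6 and 8 h. GRH1, on the other side of EMI2, lay between -1.27 and 0.19. The rows beside FBP1, FBA1, HXK1, HXK2, PGI1 and PFK2 that had all 7 values differed from them by more than 2 log2 units in root mean square. Whether neighbours contributed signal was not tested.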

How the data were processed

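The authors deposited log2 ratios. Per the labels, each array compared mRNA of 1 time point (Cy5) with a mixture of meiotic mRNA (Cy3), from poly(A) RNA and aminoallyl-labelled cDNA. Per the series' design text, the authors related this ratio to that at 0 h and took log2, with 2 independent cultures. No source used here states how the cultures enter the single column of each time, nor the array platform, scanner, background correction, normalization or spot filters. Signal over background is therefore unknown, and the number of arrays limits the precision.

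Of 6141 rows, 5585 had all 7 values; 321 had a value at 6 h only and 50 lacked only that value. Column medians lay between -0.15 and 0.03 and standard deviations between 0.84 and 1.49. Locus tags of the RefSeq R64 table named 5655 rows and left 486 unnamed; coordinates are not given, since the array's build is not named, and sequences were not used here.

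A line in hours, and a line plus a quadratic term tested jointly by F, were fitted with limma 3.58.1 (lmFit, eBayes) in R 4.3.3, with Benjamini-Hochberg adjustment over 5585 rows and a threshold of 0.05. Both were also run on simulated data with independent scatter at each time. That cannot show how they perform where successive times are dependent. Values were summarised in pandas 2.3.3 and numpy 2.4.6 under Python 3.11.15 and plotted with matplotlib 3.10.9. Alternatives were median centring, quantile normalization, each array left out, a trended robust prior, rows with 6 or more values, ranked time and a 1.5-fold threshold. The 10 genes and the lists were chosen with earlier results of these data known. The text names all 10 genes and the 2 named rows nearest to each. Of each list it names the highest maximum, the lowest minimum and every gene past a test. Further genes were added (ICL1, MLS1, MDH2, CIT2, IME1, NDT80, PFK27, FBP26, NGK1, neighbours and the paralogues ENO2 and GPD1). The partners of PFK26 were added by rule and the others after their values were seen.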

Additional observations from a re-analysis of the deposited data

How the results depend on the processing

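Under median centring, quantile normalization and the omission of FBP1, the medians of the 10 genes at the 7 times moved by less than 0.59. This is their residual standard deviation around the curve. Genes 2-fold below 0 h were counted again after median centring and quantile normalization, and with a 1.5-fold threshold in place of 2-fold. All 21 of these counts stayed within 1.5 times those as deposited. The farthest was at 1 h, with 6 genes past 1.5-fold against 4 past 2-fold. With a 1.5-fold threshold the genes above 0 h numbered 1 at 2 and 3 h and 2 at 4 and 8 h. The share of all rows past 1.5-fold was not counted, so the numbers at this threshold, below or above 0 h, have no background. The line test called 115 of all rows as deposited, 71 after median centring, 430 after quantile normalization, 67 with the trended robust prior, 367 with ranked time and 0 to 868 with 1 array left out; of the 10 genes it called 1, 2 after quantile normalization, and 0 to 3 with 1 array left out. The curve test called 317 rows, 661 after quantile normalization and 1 to 1668 with 1 array left out. Of the 10 genes it called 2 as deposited and 3 after quantile normalization. It called 1 after median centring, 1 with the trended robust prior, and 0 to 4 with 1 array left out. Of lower glycolysis it called 0 to 9 with 1 array left out. Slopes near 0 changed sign: PFK26 was at 0.0018 after median centring and between -0.13 and 0.030 with 1 array left out, PFK1 between -0.0098 and 0.12, and GLK1 between -0.11 and 0.16, none past the threshold. Leaving out an array also removes a residual degree of freedom; other causes were not tested. The time of lowest value changed after quantile normalization for GLK1 (3 h), PGI1 (8 h) and PFK26 (5 h). No paired analysis was possible because each time has 1 column.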
